A study of Mus musculus with 14 samples.

Results

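The Toll-like receptors Tlr1, Tlr2, Tlr3, Tlr4, Tlr6, Tlr7, Tlr8 and Tlr9 were followed with their adaptor Myd88 and their transport protein Unc93b1. Of these 10 genes, 9 were among the 24908 genes or transcripts tested on the arrays. The 10 were chosen by name: a probe belonged to a member when its accession maps to that symbol in RefSeq, which gave 15 probes. The splenocytes came from 7 WT and 7 Sting gt/gt mice, all 10 to 14 weeks old and all sampled 2 weeks after an intradermal injection of chick collagen type II in complete Freund's adjuvant at the tail base, so that no array came from an unimmunized mouse. WT mice were C57BL/6 and were purchased. The Sting gt/gt mice carry golden ticket (Tmem173gt), a chemically induced point mutation made in C57BL/6, and came from another source. Both were bred and housed in 1 facility, and the spleen cells were measured as 1 mixture on 1 one-colour array per mouse, so fewer cells of a type and less RNA per cell cannot be told apart.

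Toll-like receptors are sensors of microbial molecules. Tlr1, Tlr2, Tlr4 and Tlr6 sit on the cell surface, where Tlr2 pairs with Tlr1 or Tlr6 to bind lipopeptides and Tlr4 binds lipopolysaccharide. Tlr3, Tlr7, Tlr8 and Tlr9 sit in endosomes and bind nucleic acids, and Unc93b1 carries them there. All of these receptors except Tlr3 can signal through Myd88 to NF-kB and interferon regulatory factors. In the spleen, B cells and dendritic cells are known for Tlr7 and Tlr9, and myeloid cells for Tlr2 and Tlr4. STING (Sting1) is the adaptor of cytosolic DNA sensing, which runs apart from these receptors and shares the downstream kinase Tbk1 with Tlr3 and Tlr4.

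No member passed the test of Sting gt/gt against WT mice across the 14 arrays in the model without scan day, while Tlr6 and Myd88 passed the unadjusted threshold with scan day in it. Probes entered the test if at least 7 arrays read them well above background, and 9 of the 10 members were measured by this filter, each with a first probe above background on all 14. Tlr8 was not: its only probe was well above background on 1 WT and 2 Sting gt/gt arrays. Of the 9, 0 passed an unadjusted p of 0.05 in limma, where 3.54% of all genes did, and each adjusted p was 0.999. Tlr6 came nearest. Sting gt/gt values were higher for 6 members and lower for 3, a split that turned to 4 and 5 when arrays were centred on their median and to 3 and 6 with no scaling. The median difference of the 9 was 0.02 on the log2 scale, beside 0.02 over all genes. The 95% intervals of the 9 ran between a 0.735-fold and a 1.40-fold level in Sting gt/gt mice. No member had groups that did not overlap, beside 0.0482% of all genes.

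The arrays were scanned on 2 days, which bears on every value given here. Replicates 1 to 3 of both groups were scanned on the first day and replicates 4 to 7 on the second. On the second day all Sting gt/gt arrays shared 1 slide and the WT arrays lay on other slides, so slide and genotype cannot be told apart there. Between the days, 38.8% of all genes differed at an adjusted p of 0.05. Sting1 itself gave no check of the genotype labels, since a point mutation need not change its RNA: the difference was 0.04. Xist, which is made from an inactive X chromosome, was well above background on 5 arrays (WT replicates 1, 3 and 7 and Sting gt/gt replicates 2 and 3), where 5 of 7 probes of 4 Y-linked genes were not. On the other 9 arrays it was the reverse. Of the remaining probes, 1 of Eif2s3y was also above background in WT replicate 3 (-1.94), which carried Xist, and 1 of Kdm5d on 3 of the 9 alone. The labels give no sex. 4 of the 5 arrays with Xist were of the first scan day, 2 in each group.

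**Figure D1:**
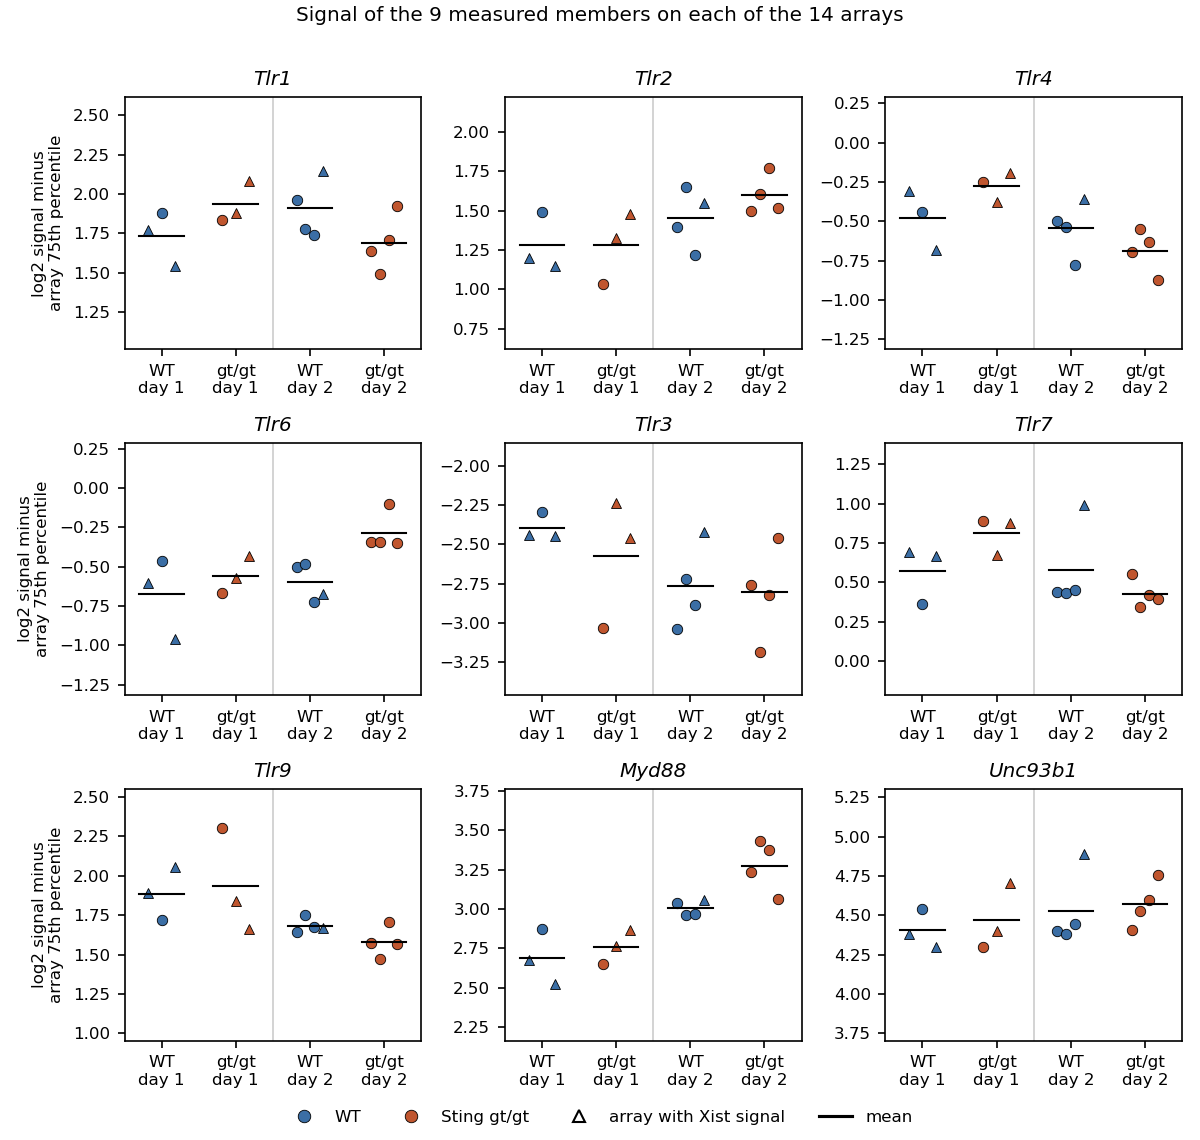
Log2 signal minus the array's 75th percentile for the 9 measured members, 1 point per array, by genotype and scan day. Each panel spans the same 1.6 log2 units around its own mean, bars are means, and triangles mark the arrays with Xist. WT and Sting gt/gt points overlap in every panel over the 14 arrays, while for Tlr6 and Myd88 all 4 Sting gt/gt points of the second day lie above the 4 WT points.

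Among the surface receptors, Tlr6, the partner of Tlr2 for diacylated lipopeptides, showed the largest difference among the 9 measured members. The Tlr6 signal, as log2 minus the array's 75th percentile like every level below, was -0.96, -0.60 and -0.46 (lowest, median, highest) in the 7 WT mice and -0.67, -0.35 and -0.10 in the 7 Sting gt/gt mice. The groups overlapped, though the WT median lay below all but 1 of the Sting gt/gt values. Tlr6 was 0.23 higher in Sting gt/gt mice (SE 0.11, limma p = 0.0533, adjusted p = 0.999, exact permutation p = 0.0321). The exact test, two-sided, ran through all 3432 splits of the 14 arrays and was not adjusted for the 9 members. The 2 tests thus fell on either side of the threshold, and neither took account of the scan day.

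Tlr2, the shared partner of Tlr1 and Tlr6, ran from 1.15 to 1.65 (median 1.39) in WT and from 1.03 to 1.77 (median 1.49) in Sting gt/gt mice, a difference of 0.08 (SE 0.12). Tlr1, which pairs with Tlr2 for triacylated lipopeptides, ran from 1.54 to 2.15 (median 1.78) in WT and from 1.49 to 2.08 (median 1.84) in Sting gt/gt mice, a difference of -0.04 (SE 0.11). Tlr4, the lipopolysaccharide receptor, ran from -0.78 to -0.31 (median -0.50) and from -0.87 to -0.19 (median -0.55), with a difference of 0.00 (SE 0.12). The 3 receptors overlapped almost wholly between the groups, with exact permutation p-values of 0.474, 0.716 and 0.969. Tlr1 and Tlr4 each had another tested probe. That of Tlr1 gave the same difference (-0.04). That of Tlr4 was dim, well above background on 6 WT and 3 Sting gt/gt arrays, and gave -0.12 (SE 0.16).

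Among the endosomal receptors, Tlr9, which binds unmethylated CpG DNA, ran from 1.64 to 2.06 (median 1.72) in WT and from 1.47 to 2.30 (median 1.66) in Sting gt/gt mice, a difference of -0.04 (SE 0.13). Tlr7, a receptor for single-stranded RNA, ran from 0.36 to 0.99 (median 0.45) and from 0.34 to 0.89 (median 0.55), a difference of 0.02 (SE 0.13). Tlr3, a receptor for double-stranded RNA, ran from -3.04 to -2.29 (median -2.45) and from -3.18 to -2.24 (median -2.76), a difference of -0.10 (SE 0.16). All 3 overlapped, with exact permutation p-values of 0.759, 0.884 and 0.550. The other tested probe of Tlr3 gave 0.08 (SE 0.21) and that of Tlr7 gave -0.06 (SE 0.20), each with the opposite sign to the first probe. A further Tlr7 probe rose above background in Sting gt/gt replicate 1 alone. The Tlr8 probe ran from -5.50 to -4.06 in WT mice, with a Sting gt/gt range of -5.14 to -3.82, and was not tested.

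Myd88, the adaptor that joins the receptors to the Irak kinases, ran from 2.53 to 3.05 (median 2.96) in WT and from 2.65 to 3.43 (median 3.07) in Sting gt/gt mice. The groups overlapped, though 4 Sting gt/gt values lay above every WT value. The difference was 0.18 (SE 0.14, limma p = 0.208, exact permutation p = 0.205), again without the scan day. Unc93b1, the membrane protein that takes the endosomal receptors out of the endoplasmic reticulum, ran from 4.30 to 4.89 (median 4.40) in WT and from 4.30 to 4.76 (median 4.53) in Sting gt/gt mice. Its difference was 0.05 (SE 0.11, exact permutation p = 0.607), and the groups overlapped throughout.

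**Figure D2:**
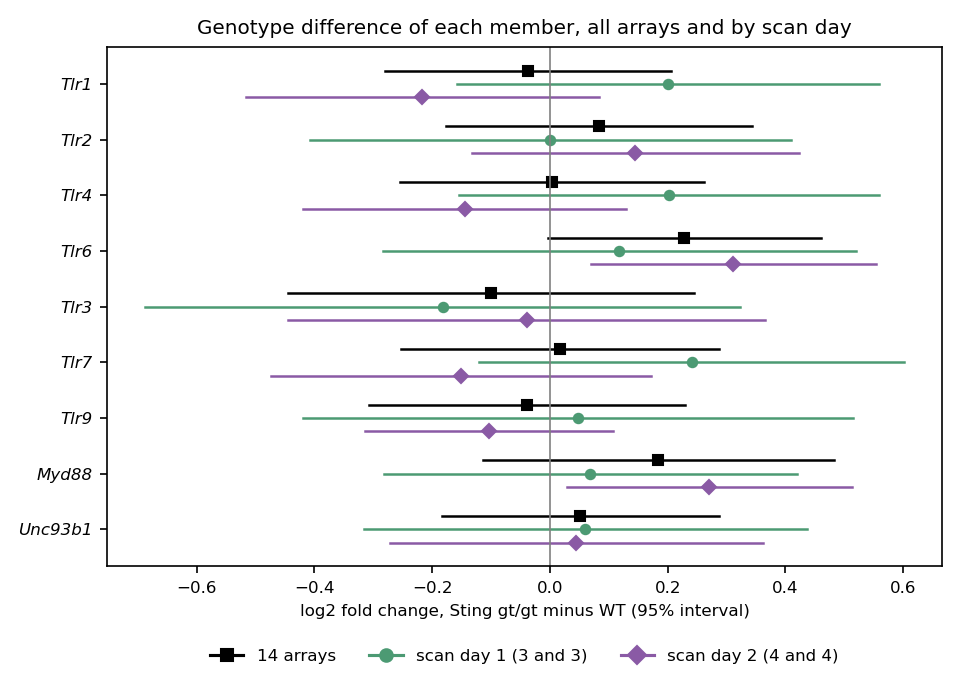
Log2 fold change of Sting gt/gt over WT mice for the 9 measured members, with 95% intervals from limma, over the 14 arrays (squares), scan day 1 (circles) and scan day 2 (diamonds). All intervals over the 14 arrays cross 0, the lower bound for Tlr6 being -0.0037, and those of Tlr6 and Myd88 on day 2 do not.

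Tlr6 and Myd88 were separated between the WT and Sting gt/gt arrays on the second scan day, when the groups also lay on different slides. On that day the Tlr6 signal was -0.50, -0.48, -0.72 and -0.67 in the 4 WT mice and -0.34, -0.34, -0.10 and -0.35 in the 4 Sting gt/gt mice. The Myd88 signal was 3.04, 2.96, 2.97 and 3.05 in WT and 3.23, 3.43, 3.37 and 3.07 in Sting gt/gt mice. Neither gene's groups overlapped, as for 15.1% of all genes on that day, and for Myd88 the lowest Sting gt/gt value stood just above the highest WT value. Tlr6 was 0.31 higher, a 1.24-fold level (SE 0.11, limma p = 0.0172, adjusted p = 0.131, exact permutation p = 0.0286). Myd88 was 0.27 higher, a 1.21-fold level (SE 0.11, limma p = 0.0321, adjusted p = 0.171, exact permutation p = 0.0286). An exact p of 0.0286 is the smallest that 4 against 4 can give, and both tests treat arrays that share a slide as independent. These 2 of 9 members (22.2%) passed an unadjusted p of 0.05, beside 23.7% of all genes, so the share of members was close to the background.

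On the first day no member passed, beside 3.77% of all genes, and none had groups that did not overlap, beside 9.03%. Tlr6 was -0.60, -0.46 and -0.96 in WT and -0.67, -0.57 and -0.43 in Sting gt/gt mice. Myd88 was 2.68, 2.87 and 2.53 in WT and 2.65, 2.76 and 2.87 in Sting gt/gt mice. Both overlapped, with differences of 0.12 (SE 0.17) and 0.07 (SE 0.15), and 3 against 3 cannot give an exact p under 0.10. The difference between the days was itself not past the threshold for either gene (0.19, exact permutation p = 0.383, and 0.20, exact permutation p = 0.239).

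With scan day in the model the differences of Tlr6 and Myd88 stayed at 0.23 and 0.18 while their standard errors fell to 0.09 and 0.09. Both passed the unadjusted threshold in limma, Tlr6 with an adjusted p of 0.678 and Myd88 with an adjusted p of 0.679, as 2 of 9 members beside 7.24% of all genes. 0 of 9 passed with arrays centred on their median or with no scaling. 1 of 9, Tlr6, passed with quantile normalization, with the authors' series table, with slide as a random block, or with the Xist class of the array in the model beside scan day. Leaving out 1 array at a time, 0 members passed without WT replicate 3, 6 or 7 or Sting gt/gt replicate 3 or 6. On the second day alone, neither passed without Sting gt/gt replicate 6, and Myd88 did not pass without any 1 of WT replicates 4 to 6 or Sting gt/gt replicates 4 to 6. On that day alone both passed without WT replicate 7, the array with Xist, with Myd88 0.29 higher. Over the 2 days with scan day in the model, neither passed without it.

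**Figure D3:**
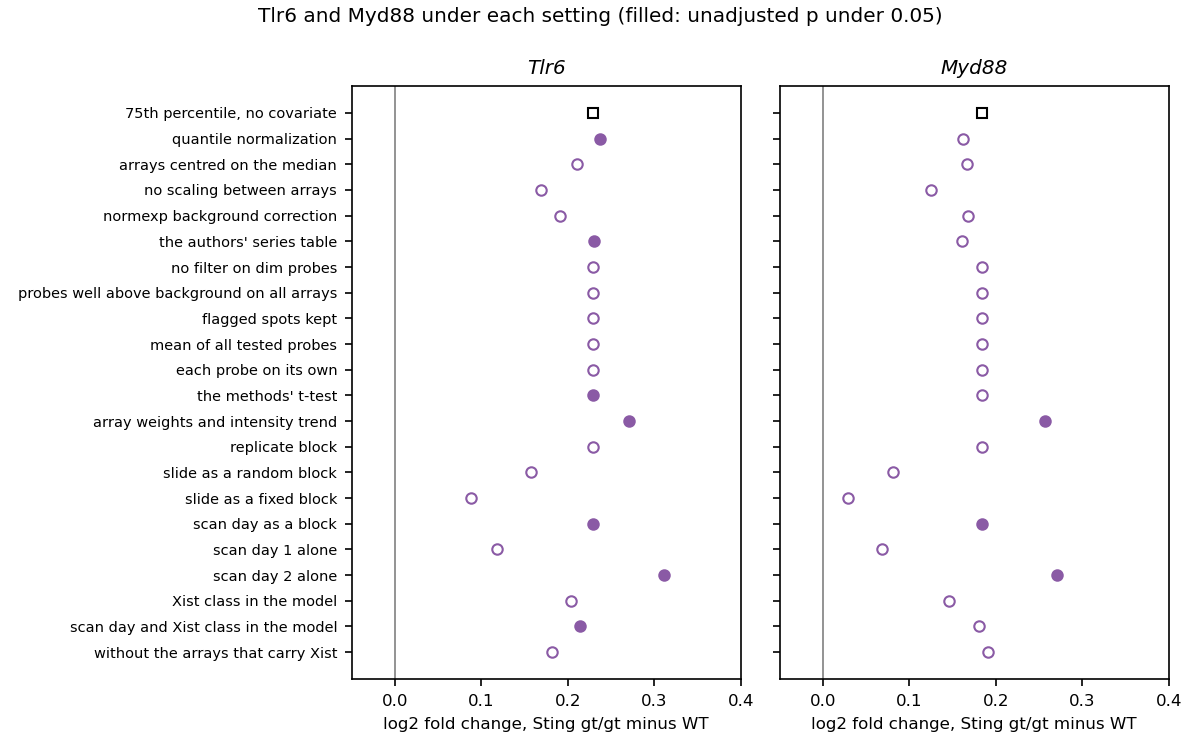
Log2 fold change of Tlr6 and Myd88, Sting gt/gt minus WT, under the reported setting (square) and 21 alternatives (circles), filled where the unadjusted p was under 0.05. Every value lies above 0, from 0.09 to 0.31 for Tlr6 and from 0.03 to 0.27 for Myd88, and the lowest of each came with slide as a fixed block. That block rests on the slides that held both genotypes, all of the first scan day. Several alternatives, such as other filters, the methods' t-test and the scan-day block, return the reported value itself.

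Since Tlr6 and Myd88 were the members that passed together, their promoters are shown. A RefSeq table of sequences from 250 bases before to 50 after each start site (GRCm38.p6) held 9 promoters of 7 members. They were searched on both strands for GAAA, any 2 bases and GAAA again, a spaced repeat known from elements that interferon regulatory factors bind. The kappaB motif was searched on the gene's strand alone. The motifs were picked with these sequences in view. Of the 9 promoters, 2 held the repeat, 1 of the 2 listed for Tlr6 and the 1 for Myd88, while 3.44% of all 32851 promoters in the table did. Counted from the start site, it spans -116 to -101 in Tlr6, as 2 overlapping matches on the opposite strand, and -40 to -31 in Myd88. On the gene's strand, a kappaB match was found in 2 of the 9, those of Tlr2 and Tlr3, and in 5.89% of all promoters. Capitals mark the repeats, both sequences run 5′ to 3′ along the minus strand, on which these genes lie, and a match describes these letters and no binding.
Tlr6 promoter, chr5:64959117-64959416: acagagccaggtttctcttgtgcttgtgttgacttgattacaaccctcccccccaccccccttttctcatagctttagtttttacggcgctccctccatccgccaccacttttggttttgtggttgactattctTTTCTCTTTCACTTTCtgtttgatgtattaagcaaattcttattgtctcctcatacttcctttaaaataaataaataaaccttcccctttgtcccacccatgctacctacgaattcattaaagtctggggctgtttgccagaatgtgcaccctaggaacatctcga
Myd88 promoter, chr9:119339969-119340268: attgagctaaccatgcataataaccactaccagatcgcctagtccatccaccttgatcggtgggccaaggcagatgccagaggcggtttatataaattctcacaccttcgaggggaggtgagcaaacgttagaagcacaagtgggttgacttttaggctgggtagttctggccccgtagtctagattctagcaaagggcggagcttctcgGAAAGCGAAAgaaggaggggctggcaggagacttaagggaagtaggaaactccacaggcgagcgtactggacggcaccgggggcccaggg

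Tlr1, Tlr4, Tlr7 and Tlr9 were higher in Sting gt/gt mice on the first day and lower on the second, though none of these differences passed the test. On the first day Tlr1 was 1.77, 1.88 and 1.54 in WT and 1.84, 1.88 and 2.08 in Sting gt/gt mice. On the second day it was 1.96, 1.78, 1.74 and 2.15 in WT and 1.64, 1.49, 1.71 and 1.92 in Sting gt/gt mice. Sting gt/gt values thus lay mostly higher on the first day and mostly lower on the second, with overlap on both. The differences were 0.20 (SE 0.15) and -0.22 (SE 0.13). The change between days was -0.42 (SE 0.20, limma p = 0.0520, adjusted p = 0.277), with an exact p of 0.0343 over the 1400 ways to permute genotypes within days. The other Tlr1 probe gave 0.22 and -0.24. Tlr7 moved from 0.24 to -0.15 (exact permutation p = 0.0614) and Tlr4 from 0.20 to -0.14 (exact permutation p = 0.0514). The dim other probe of Tlr4 went the opposite way, from -0.61 to 0.25. No member passed the limma test of this change with its first probe, beside 18.4% of all genes. The exact p-values were not adjusted for the 9 members.

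Markers of B cells moved in the same manner, and their part in these values was not tested. All 6 B cell markers (Cd79a, Cd79b, Ms4a1, Cd22, Pax5 and Blk) were higher in Sting gt/gt mice on the first day, with a median of 0.27, and lower on the second, with a median of -0.49, where 5 passed an unadjusted p of 0.05, beside 23.7% of all genes. Their summed signal, on the log2 scale, was 6.67 to 7.21 in WT and 6.43 to 6.67 in Sting gt/gt mice on the second day, where the ranges just met. On the first day it was 6.39 to 6.66 in WT and 6.50 to 7.02 in Sting gt/gt mice. Tlr9, a receptor of B cells, differed by 0.05 and -0.10 on the 2 days. For the 8 markers of monocytes and macrophages, 5 were higher and 3 lower on the second day, with a median of 0.14, Ccr2 passed as higher and Itgam as lower, and summed signals of 7.47 to 7.85 in WT and 7.52 to 8.02 in Sting gt/gt mice overlapped. All 8 measured neutrophil markers were higher on the second day, with a median of 0.26, and 1, Cxcr2, passed. Of the 6 plasmacytoid dendritic cell markers, with a median of 0.08, Bst2 passed as higher and Siglech as lower. No marker of conventional dendritic cells, T cells or NK cells passed on that day, and their medians were 0.16, -0.02 and 0.22.

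The scan day moved 2 of the 9 members at an adjusted p of 0.05, beside 38.8% of all genes. Myd88 was 0.42 higher on the second day (SE 0.09, limma adjusted p = 0.00175). It ran from 2.53 to 2.87 on the 6 arrays of the first day and from 2.96 to 3.43 on the 8 of the second, with no overlap, as for 15.8% of all genes. Tlr9 was 0.28 lower (SE 0.10, limma adjusted p = 0.0393) and overlapped, with 1.66 to 2.30 against 1.47 to 1.75. The other members shifted by between -0.30 (Tlr3) and 0.24 (Tlr2) and did not pass. Which members passed changed with the scaling: Tlr2, Tlr6, Myd88 and Unc93b1 with arrays centred on their median, and Myd88 alone with no scaling. None passed in the authors' series table. Its processing is not given, so whether scan day was adjusted for in it is not known. Probes of 1 gene could also shift apart. The first Tlr7 probe was 0.19 lower on the second day while the other was 0.53 higher, and the first Tlr1 probe was 0.03 lower while the other was 0.36 higher.

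Tlr7 and Tlr8 are X-linked, and the arrays with Xist give a further description of Tlr7, with no test since that split was read from the data. On the 5 arrays with Xist the first Tlr7 probe read 0.69, 0.66 and 0.99 in WT and 0.67 and 0.88 in Sting gt/gt mice. On the 9 arrays without it the signal ran from 0.34 to 0.55 with 1 exception, Sting gt/gt replicate 1, at 0.89. The other Tlr7 probe overlapped between these arrays, with -0.10 to 1.29 against -0.13 to 0.73. Within the first scan day, where 4 of 6 arrays had Xist, it read 0.07 and -0.01 in WT and -0.10 and 0.64 in Sting gt/gt mice with Xist, and -0.13 and 0.11 without. Both Tlr7 probes were highest in WT replicate 7.

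**Figure D4:**
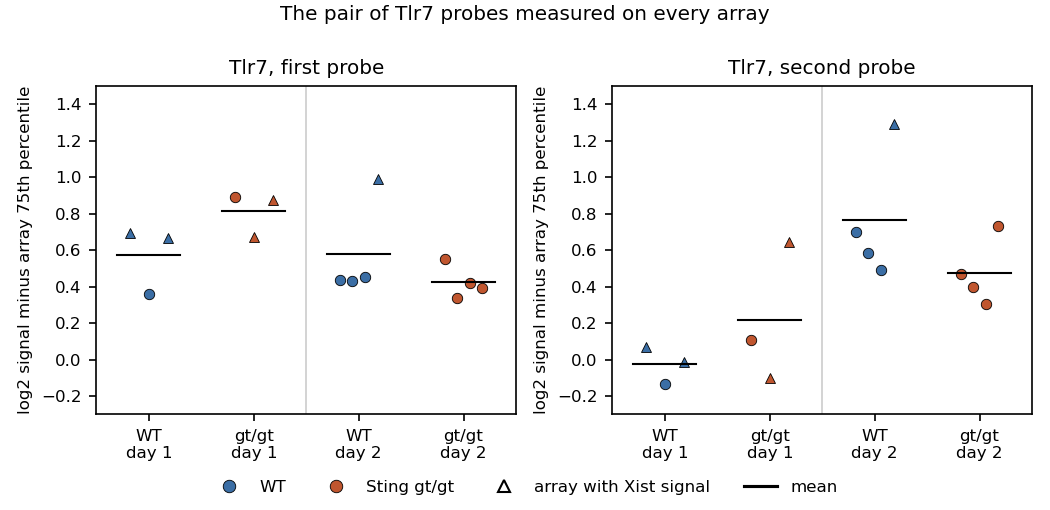
Log2 signal minus the array's 75th percentile for the pair of Tlr7 probes above background on all 14 arrays, by genotype and scan day, with bars for means and triangles for the arrays with Xist. WT replicate 7 is the highest point of both panels, and the first probe falls from the first to the second day in Sting gt/gt mice while the other rises.

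Partner genes were compared across arrays within each scan day, since many genes differed between the days. The genotypes were pooled, so a difference between genotypes or slides shared by both genes of a pair enters r. 5 pairs chosen for their biology gave 10 relations. Tlr9 and Unc93b1, receptor and transporter, were opposed on the 6 arrays of the first day (Pearson r = -0.84, exact permutation p = 0.0347, adjusted p = 0.203). Their Spearman rho was -1 (exact permutation p = 0.00278, adjusted p = 0.0278), and r was -0.96 on the 4 arrays left without the 2 farthest from the Tlr9 median. On the 8 arrays of the second day r was -0.10 and rho -0.29, with exact permutation p-values of 0.807 and 0.501, so the relation did not pass there. Tlr2 and Tlr6 ran together on both days (r = 0.73 and 0.73, exact permutation p = 0.0792 and 0.0406, adjusted p = 0.264 and 0.203). Their rho was 0.89 and 0.57 (exact permutation p = 0.0333 and 0.151, adjusted p = 0.167 and 0.302). On the second day r was 0.02 without the 2 arrays farthest from the Tlr2 median, so it rested on those arrays. Tlr1 and Tlr2 gave r = 0.64 and -0.17, Tlr7 and Unc93b1 -0.05 and 0.60, and Tlr7 and the dim Tlr8 -0.66 and -0.47, with adjusted p-values of r from 0.267 to 0.894. Without the 2 farthest arrays, r for Tlr7 and Unc93b1 turned to 0.98 and -0.45 and r for Tlr7 and Tlr8 was 0.92 and -0.24, so the sign turned in 3 of these 4, while Tlr1 and Tlr2 gave 0.58 and -0.20.

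Of 44 other genes of the pathway, 43 were measured, all but the adaptor Ticam2. 0 of 43 passed an unadjusted p of 0.05 in limma over the 14 arrays, beside 3.54% of all genes. Of the 43, 24 were higher and 19 lower, with a median of 0.01. Over all 24908 genes, 13911 were higher and 10997 lower, with a median of 0.02. Among the other Toll-like receptors, the flagellin receptor Tlr5 differed by 0.18 (SE 0.26), Tlr11 by -0.08 (SE 0.16), Tlr12 by -0.02 (SE 0.14), and Tlr13, a receptor for bacterial ribosomal RNA, by 0.14 (SE 0.12). Of the proteins that present ligands to Tlr4, Cd14 differed by 0.07 and Ly96 (MD-2) by -0.29 (SE 0.18). The chaperones of the receptors Hsp90b1 and Cnpy3 differed by 0.22 (SE 0.18) and 0.08 (SE 0.09). Below the receptors, the adaptors Tirap and Ticam1 differed by -0.06 and 0.01, the kinase Irak4 by -0.07, the ligase Traf6 by -0.03, and the transcription factors Irf5 and Irf7 by -0.07 and -0.16, each smaller than its standard error. With scan day in the model 1 of 43 passed, beside 7.24% of all genes. It was Slc15a4, an endosomal transporter that Tlr7 and Tlr9 signaling needs, with -0.23 (SE 0.11, limma adjusted p = 0.679).

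On the second day 9 of the 43 passed an unadjusted p of 0.05 (20.9%), beside 23.7% of all genes. Tlr5 was 0.73 higher, Tlr13 0.40 higher and Hsp90b1 0.66 higher in Sting gt/gt mice, and Ly96 was 0.68 lower (-0.68). The other 5, named here after their values were seen, were Lbp, Irak2, Nfkb1 and Rela, which were higher, and Cd36, which was lower. On the first day the same contrasts were -0.56 for Tlr5, -0.22 for Tlr13, 0.23 for Ly96 and -0.37 for Hsp90b1, of which that of Hsp90b1 alone passed the unadjusted threshold. The change between days passed an unadjusted p of 0.05 for 10 of 43 genes (23.3%, beside 18.4% of all genes) and an adjusted one for Hsp90b1 (1.03, SE 0.18, limma adjusted p = 0.0372). Hsp90b1, also known as gp96, is a folding chaperone of many of these receptors. The changes between days of the members ran from -0.42 (Tlr1) to 0.20 (Myd88).

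**Figure D5:**
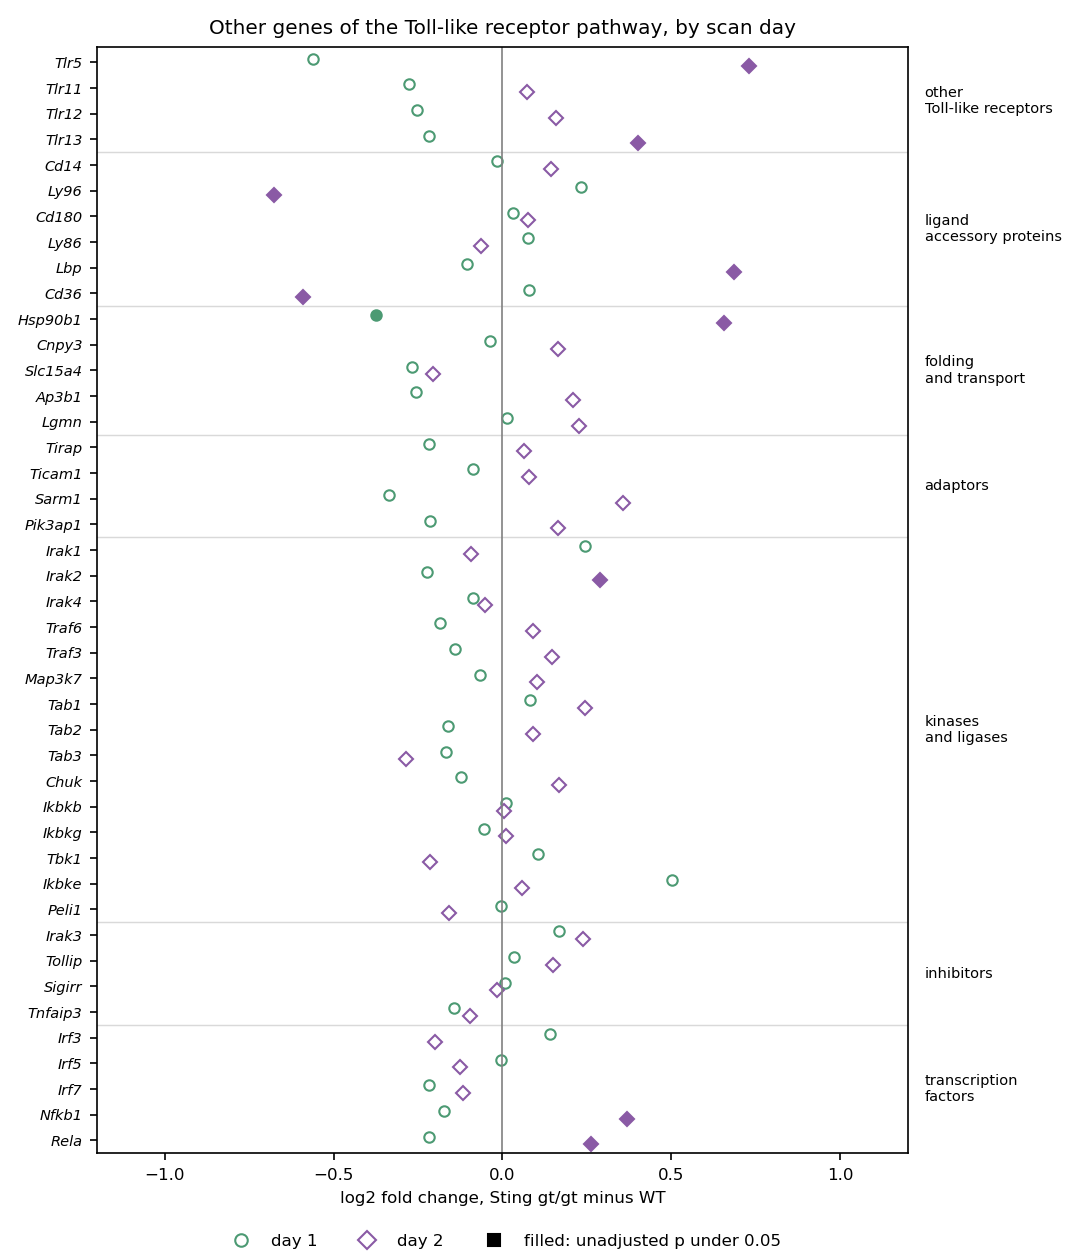
Log2 fold change of Sting gt/gt over WT mice for the 43 measured genes of the pathway outside the members, grouped by role, on scan day 1 (circles) and scan day 2 (diamonds), filled where the unadjusted limma p was under 0.05. 1 circle and 9 diamonds are filled, and Tlr5, Tlr13, Ly96 and Hsp90b1 lie on opposite sides of 0 on the 2 days.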

How the data were processed

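RNA of 14 spleen samples, 7 of each genotype, was labelled with Cy3 and hybridized to 14 one-colour Agilent arrays. The deposited intensity values, 1 per spot, were background-corrected by the authors with Agilent Feature Extraction 11.0.1.1 and not scaled between arrays, per the file headers. The deposited series table holds log2 values of the same arrays, whose normalization is not given in the sources used here. Its columns followed the scanner intensities with r of 0.997 to 0.999. From the intensities, log2 of the processed signal was taken after spots with outlier flags and controls were left out. The array's 75th percentile over all probes, computed with flagged spots kept, was then subtracted.

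Of 56605 probes, 32994 (58.3%) matched 1 symbol in RefSeq by accession. A probe was tested when well above background on at least 7 of 14 arrays (31766 probes), and each gene was read from its brightest tested probe (24908 genes or transcripts). Groups were compared in R 4.3.3 with limma 3.58.1 without covariates, with Benjamini-Hochberg adjustment over all genes, and with exact two-sided permutation tests. The permutations of the partner pairs were run in Python 3.11.15. Members passed at an unadjusted p under 0.05. The scripts were tested on simulated data. Each group was made up of 7 mice, per the study's text, so p-values rest on the spread between arrays of different mice. In the fit without covariates that spread includes any shift between scan days or slides. Precision is limited by how many arrays there are. No member spot had an outlier flag and no probe was saturated. Named besides the members were the other Toll-like receptors, Cd14, Ly96, Hsp90b1, Cnpy3, Irak4, Traf6, Ticam1, Tirap, Irf5, Irf7 and pathway genes that passed with or without scan day. The members, lists and tests were chosen with earlier results of these data known. Cell type lists lacked a matched probe for Ly6g and Trac. A further cell type marker is not reported here, and its list was summarised without it.

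Replicate numbers were taken from the labels. Between the 2 genotypes, arrays with the same number deviated from their group's mean together, with correlations of 0.156 to 0.534, and of -0.408 to 0.249 once scan-day means were also removed, so the numbers pair arrays through the scan day. The alternatives were other scalings, normexp on the deposited median intensities with an offset of 50, the series table, other probe filters and summaries, the methods' t-test, array weights, blocks for replicate, slide and scan day, each array left out, and, chosen after seeing the data, the Xist class of the array.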

Additional observations from a re-analysis of the deposited data

Results flagged for a closer look

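Of 26 sets of 7 arrays examined for a value far from the rest, 2 had one, where chance gives about 1 in 20 sets. The Unc93b1 signal of WT replicate 7 was 4.89 (log2 minus the array's 75th percentile), with the next WT value at 4.54, and this array also carried Xist and gave the highest Tlr1 and Tlr7 signals. The second Tlr3 probe read -4.53 in WT replicate 4, with the next WT value at -3.49.

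The genotype difference changed between the scan days, as second-day minus first-day log2 fold change, for 1 member by an exact permutation test. For Tlr1 the change was -0.42 (limma p = 0.0520, exact permutation p = 0.0343), and limma put it past the threshold under quantile normalization, normexp and the series table. The dim second probe of Tlr4 changed by 0.86 and passed the unadjusted threshold in limma. In the pathway, the change was 1.29 for Tlr5 (exact permutation p = 0.0129), 0.41 for Tlr12 (exact permutation p = 0.03) and 0.62 for Tlr13 (exact permutation p = 0.00286). It was -0.91 for Ly96 (exact permutation p = 0.00714), 1.03 for Hsp90b1 (exact permutation p = 0.00143) and 0.27 for Traf6 (exact permutation p = 0.00143). Only that of Hsp90b1 passed adjustment over all genes. In limma, 10 of the 43 pathway genes (23.3%) passed an unadjusted p of 0.05 for this change, beside 18.4% of all genes. Of the 10, only those on the list of named genes are given here. The genotypes lay on separate slides on the second day.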

How the results depend on the processing

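Of the 9 measured members, 0 passed at an unadjusted p of 0.05 over the 14 arrays. 1 passed with quantile normalization, the series table or the methods' t-test, and 1 with scan day and Xist class in the model, each time Tlr6. 2 passed, Tlr6 and Myd88, with array weights and an intensity trend (17.7% of all genes), with scan day as a block and on scan day 2 alone. Leaving out 1 array gave 0 to 1, and Tlr6 passed without WT replicate 2, 4 or 5 or Sting gt/gt replicate 1 or 2. With the replicate block, 0 members and 1 pathway gene (Slc15a4) passed, and 1406 genes in place of 881. Of all genes, 1928 passed in the series table, 439 with slide as a random block, 1804 with scan day, 4419 with array weights, 1790 without the arrays that carry Xist, and 494 to 1964 with 1 array left out.

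Of the 43 pathway genes, 0 passed. 1 passed with normexp, scan day, scan day 1 alone, Xist class, or scan day and Xist class, 2 with slide as a fixed block, 8 with array weights and 9 on scan day 2 alone. Leaving out 1 array gave 0 to 4, with 4 (Ly96, Cd36, Tab3 and Nfkb1) without Sting gt/gt replicate 1.

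With scan day in the model 2 members passed, 1 with quantile normalization, the series table, slide as a random block or Xist class, 0 with median centring or no scaling, and 0 to 2 with 1 array left out. The difference between days passed for 0 members, for 1 (Tlr1) with quantile normalization, normexp or the series table, and for 0 to 2 with 1 array left out. The scan day itself moved 2 members, 4 with median centring, 1 with no scaling, slide as a random block or Xist class, and 1 to 3 with 1 array left out. It moved 0 in the series table, whose handling of scan day is not given. On scan day 2 alone, 2 members passed, and 0 to 2 with 1 array left out. The cause of these changes was not tested. The signs of Tlr3, Tlr6 and Myd88 were kept in all 35 alternatives, and those of Tlr4 and Tlr7 in 24. Several alternatives, such as other filters, the methods' t-test and the scan-day block, return the same difference, so there the sign could not turn. The other Tlr3 probe, read alone, had the opposite sign (0.08). The median of the 9 members moved by less than the spread between replicates throughout. Tlr8 and the dim Tlr4 probe were near background, which limits their values.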
